A study of Homo sapiens with 12 samples.

Results

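The 9 genes described here, HLA-B, HLA-C, HLA-E, HLA-F, B2M, TAP1, TAP2, TAPBP and NLRC5, act in antigen presentation by MHC class I, and their chromatin accessibility was read from ATAC-seq of 2 human cancer cell lines. The rule took the 100-bp bins of each line's deposited table that lay in the gene bodies or within 10 kb on each side (GENCODE v44, GRCh38). In DU-145 cells 411 of 709366 bins qualified, in 35 of 79177 accessible regions, and in BT-549 cells 383 of 472994 bins, in 31 of 46298 regions. An accessible region here is a run of adjoining bins, and a region counted as a member with at least 1 bin in a window. The rule uses no measured value beyond the presence of a bin.

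DU-145 is a castration-resistant prostate cancer (CRPC) line, and BT-549 is a triple-negative breast cancer (TNBC) line. Both carried a tetracycline-inducible short hairpin RNA against MUC1 (tet-MUC1shRNA), a gene whose MUC1-C subunit is a transmembrane oncoprotein. Cells were given vehicle (0.1% DMSO) or doxycycline (DOX) for 7 days, with 3 libraries of 50000 cells in each of the 4 groups. The labels call the vehicle cells untreated in 1 field and DMSO-treated in another. DOX and the silencing of MUC1 changed together, so their effects cannot be told apart, and each line stands for its tumor type as 1 cell line.

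MHC class I molecules carry peptides from inside the cell to its surface, where CD8+ T cells and natural killer cells read them. HLA-B and HLA-C are classical heavy chains, HLA-E and HLA-F are nonclassical ones, and B2M encodes the light chain that they share. TAP1 and TAP2 form the transporter that brings peptides into the endoplasmic reticulum, TAPBP (tapasin) holds the empty heavy chain at that transporter, and NLRC5 is the transactivator that acts on the promoters of these genes. Heavy-chain genes are near copies of each other and highly variable. How reads that match several of them were treated is not given in the sources used here, so the HLA values, and those over exons above all, are uncertain.

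The promoter sequences show the letters through which this group is known to be regulated. The 250 bases before the start were taken from RefSeq (GRCh38.p14) for 7 of the 9 members. HLA-E and NLRC5 had no entry. The search covered both strands for the interferon-stimulated response element (ISRE, read as GAAA, any 2 bases and GAAA), the NF-kB consensus, the CRE-type TGACG and the CCAAT box. Of the 35116 promoter entries, 3.02% held the ISRE letters, 5.21% the NF-kB consensus, 21.2% TGACG and 32% CCAAT. The 6 sequences below are those of the promoters that passed the test in a line, with every match in capitals, each read 5′ to 3′ on the strand of the gene. They lie at chr6:31357180-31357429 (HLA-B, minus strand), chr6:31272093-31272342 (HLA-C, minus strand), chr6:29723184-29723433 (HLA-F, plus strand), chr15:44711267-44711516 (B2M, plus strand), chr6:32838740-32838989 (TAP2, minus strand) and chr6:33314079-33314328 (TAPBP, minus strand).
HLA-B: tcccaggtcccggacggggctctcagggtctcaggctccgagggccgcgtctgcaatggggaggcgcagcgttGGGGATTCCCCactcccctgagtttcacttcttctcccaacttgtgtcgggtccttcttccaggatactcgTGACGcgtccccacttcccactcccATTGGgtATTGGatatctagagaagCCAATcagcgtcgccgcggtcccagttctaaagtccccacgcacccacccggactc
HLA-C: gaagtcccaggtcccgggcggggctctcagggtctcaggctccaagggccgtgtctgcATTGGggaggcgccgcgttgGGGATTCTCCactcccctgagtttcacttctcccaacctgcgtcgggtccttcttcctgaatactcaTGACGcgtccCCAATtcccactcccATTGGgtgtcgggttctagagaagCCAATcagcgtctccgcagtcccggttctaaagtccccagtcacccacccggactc
HLA-F: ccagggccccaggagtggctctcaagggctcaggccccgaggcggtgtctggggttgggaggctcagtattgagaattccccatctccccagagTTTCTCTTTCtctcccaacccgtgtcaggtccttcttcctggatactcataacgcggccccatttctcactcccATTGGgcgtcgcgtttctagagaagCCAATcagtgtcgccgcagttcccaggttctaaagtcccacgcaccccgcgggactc
B2M: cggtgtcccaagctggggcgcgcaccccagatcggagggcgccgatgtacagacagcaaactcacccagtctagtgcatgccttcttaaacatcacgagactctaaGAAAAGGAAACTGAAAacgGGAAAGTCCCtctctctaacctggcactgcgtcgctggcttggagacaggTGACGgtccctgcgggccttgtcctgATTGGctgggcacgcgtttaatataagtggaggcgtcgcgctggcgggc
TAP2: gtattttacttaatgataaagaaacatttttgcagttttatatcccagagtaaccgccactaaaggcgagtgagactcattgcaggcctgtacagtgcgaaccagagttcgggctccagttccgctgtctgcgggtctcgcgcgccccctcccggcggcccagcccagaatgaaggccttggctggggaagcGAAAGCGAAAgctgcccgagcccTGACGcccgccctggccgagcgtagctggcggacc
TAPBP: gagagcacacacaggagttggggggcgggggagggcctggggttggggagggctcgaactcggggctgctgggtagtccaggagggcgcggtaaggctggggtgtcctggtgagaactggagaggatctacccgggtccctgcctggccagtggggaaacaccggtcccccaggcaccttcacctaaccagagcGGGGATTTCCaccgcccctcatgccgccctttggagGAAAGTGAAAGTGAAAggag

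The ISRE letters stood in HLA-F, B2M, TAP1, TAP2 and TAPBP, and the NF-kB consensus in HLA-B, HLA-C, B2M, TAP1 and TAPBP. HLA-B and HLA-C held no exact ISRE, which says only that these letters were not in this window. The matches to the ISRE overlapped each other in B2M, TAP1 and TAPBP, and the matches to the NF-kB consensus did so in HLA-B. A match is a description of the letters and not a bound site.

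The depth differed between groups. Summed over its bins, a library held a coverage of 12370094 to 25232000 in DU-145, and of 9142900 to 13606129 in BT-549 vehicle against 2502510 to 3267024 in BT-549 DOX cells. The peak lists held 30450 to 39837 peaks in those DOX libraries and 65204 to 93929 in the vehicle ones. In BT-549 depth and treatment therefore moved together in all 6 libraries and cannot be told apart. The DU-145 peak lists also separated by treatment, with 63271 to 83605 peaks in the vehicle and 87702 to 95487 in the DOX libraries. The summed coverage of those DU-145 groups overlapped. Levels below are the mean over a region's bins of the bin coverage per 1000000 of the library's summed coverage ("relative coverage"). With library sums as the scaling, the median log2 fold change (DOX over vehicle) of all regions was 0.24 in DU-145 and -0.10 in BT-549, and at promoters of protein-coding genes it was -0.18 and 0.09. Off those promoters it was 0.39 and -0.24. Trimmed-mean (TMM) factors moved the medians of all regions to 0.05 and 0.00, and the numbers of regions called higher and lower from 29363 and 13805 to 23749 and 20164 in DU-145, and from 5642 and 8329 to 7341 and 6845 in BT-549. A change of a member is therefore read against these medians. Of the epithelial markers KRT8, KRT18, CDH1 and EPCAM, DU-145 had a promoter region for all 4 and BT-549 for none, while the mesenchymal VIM and ZEB1 had one in both lines. The prostate marker KLK3 had none in either line, the breast marker ESR1 had one in DU-145 only, and GATA3 in both. With DOX the VIM and ZEB1 promoters were higher in BT-549 (log2 fold change 0.62 and 1.01), and in DU-145 KRT8 (-0.94), KRT18 (-0.34) and VIM (-0.32) were lower and CDH1 (0.45) and EPCAM (0.23) higher. The part of such shifts in the results below was not tested. The promoter region of MUC1 itself gave 2.53 ± 0.143 and 2.25 ± 0.104 in vehicle and DOX DU-145 (SD, n = 3) and 4.21 ± 0.396 and 4.28 ± 0.426 in BT-549. A hairpin acts on RNA, so these values do not check the silencing.

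In DU-145 cells treated with DOX, accessibility was lower at the promoters of B2M, HLA-F and HLA-B and higher at 8 regions away from promoters, near B2M, NLRC5, HLA-E, HLA-F and TAPBP. Of the 35 member regions, 8 were higher and 5 lower (edgeR's quasi-likelihood test, Benjamini-Hochberg adjusted p under 0.05 over all regions of the line), where 37.1% of all regions were higher and 17.4% lower. None of the 9 member promoters was higher and 3 were lower, beside 8.18% and 39.8% of the 12367 promoter regions of the line. Off promoters 8 of 19 member regions were higher and 1 lower, beside 28351 and 8881 of the line's 66810. Of the 29363 gains over all regions of the line, 28351 lay off promoters. These counts of the members are thus near or below the background. The median log2 fold change of the 9 member promoters was -0.23, against -0.18 for all promoter regions. Off promoters it was 0.37 over the member regions, against 0.39 over all such regions.

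B2M had the largest promoter change in DU-145. Its relative coverage was 1.68, 2.09 and 2.03 in the vehicle libraries and 1.15, 1.61 and 1.24 in the DOX libraries. Every DOX library lay below every vehicle library, at 0.689 of the vehicle mean (log2 fold change -0.53 ± 0.11 SE, adjusted p = 8e-05). The region spans chr15:44710701-44713100, over the start, the first exon and part of the first intron. This call held under all 15 alternatives, with log2 fold changes from -0.77 to -0.37.

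The HLA-F promoter gave 2.42, 2.56 and 2.43 with vehicle and 1.68, 2.08 and 1.87 with DOX, again without overlap (log2 fold change -0.40 ± 0.10, adjusted p = 0.00145). The HLA-B promoter gave 0.948, 1.03 and 1.41 with vehicle and 0.787, 0.712 and 0.976 with DOX, and its groups overlapped (-0.45 ± 0.15, adjusted p = 0.0122). Both calls were lost once the dependence of coverage on GC content was taken out of each library, at -0.05 (adjusted p = 0.724) for HLA-F and -0.14 (adjusted p = 0.45) for HLA-B. The HLA-B call was also lost without vehicle replicate 3, at -0.27 (adjusted p = 0.155), without DOX replicate 2, at -0.34 (adjusted p = 0.0862), and at the region's highest bin, at -0.37 (adjusted p = 0.101).

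The other 6 promoters did not pass the test in DU-145. HLA-C gave 1.86, 1.71 and 1.96 with vehicle and 1.27, 1.82 and 1.57 with DOX (log2 fold change -0.24 ± 0.12, adjusted p = 0.0897). HLA-E gave 1.83, 1.79 and 1.86 with vehicle and 1.6, 1.72 and 1.53 with DOX (-0.17 ± 0.10, adjusted p = 0.168). In HLA-C the groups overlapped, and without DOX replicate 2 it passed as lower (-0.37, adjusted p = 0.016). In HLA-E they did not overlap. For NLRC5, TAP1, TAPBP and TAP2 the log2 fold changes were -0.23, -0.10, -0.03 and -0.02, and the vehicle and DOX libraries overlapped in each. With the GC trend removed, the values of HLA-C, HLA-E, NLRC5, TAP1, TAP2 and TAPBP were above 0, and TAP1 (0.25, adjusted p = 0.0117) and TAP2 (0.31, adjusted p = 0.00663) passed as higher. With TMM factors HLA-C, HLA-E, NLRC5 and TAP1 passed as lower, at -0.43, -0.36, -0.43 and -0.29. No direction is therefore given for these 6 promoters.

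**Figure D1:**
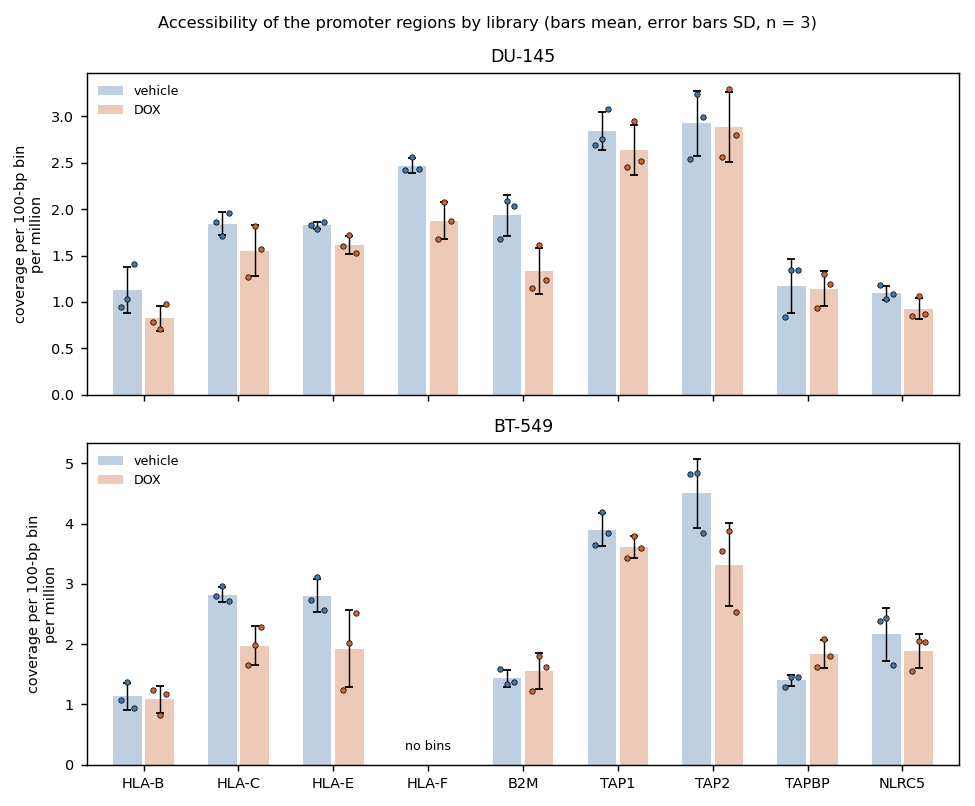
Relative coverage of the promoter region of each member by library in DU-145 (top) and BT-549 (bottom), with points for libraries, bars for means and error bars for the SD (n = 3). B2M, HLA-F and HLA-E show DOX libraries below all vehicle libraries in DU-145, HLA-C and HLA-E do so in BT-549, and HLA-F has no bins in BT-549.

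Away from promoters, the 8 gains in DU-145 were at regions with vehicle means of 0.172 to 0.893, beside a median of 0.509 over all regions of the line. The steepest was centred at -4.22 kb from the B2M start (chr15:44706901-44707700), with its highest bin in an intron of the neighboring gene PATL2. It gave 0.209, 0.207 and 0.101 with vehicle and 1.04, 0.742 and 0.578 with DOX, a 4.57-fold higher mean (log2 fold change 2.12 ± 0.27, adjusted p = 2.8e-08). A peak was called there in 1 vehicle library and all 3 DOX libraries. With peaks in at least 3 libraries needed for a region, it could enter the table only through its DOX libraries, and the peak count adds nothing to the test. Downstream of B2M, a region centred 8.98 kb from the start (chr15:44719801-44721200, intergenic) gave 0.164, 0.259 and 0.284 with vehicle and 0.375, 0.446 and 0.429 with DOX (0.82 ± 0.22, adjusted p = 0.00155). This region was not called with loess offsets (0.43, adjusted p = 0.0958). It had a peak in 1 vehicle library and all 3 DOX libraries, so it too could enter the table only with its DOX peaks. The B2M window also held the loss with the smallest adjusted p, at a region centred 17.4 kb from the start with its highest bin in the gene TRIM69 (chr15:44728201-44729700). It fell from 8.41, 8.53 and 8.14 to 5.01, 4.74 and 5.32 (-0.74 ± 0.07, adjusted p = 2e-10), and part of it lies beyond the window.

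NLRC5, a gene of 94047 bp, gained accessibility at 3 of its 8 regions, a share close to the 37.1% of all regions that were higher. Inside the gene, a region centred 11.1 kb from the start (chr16:57000401-57001000, its highest bin in an intron) gave 0.376, 0.311 and 0.259 with vehicle and 0.893, 0.848 and 1.07 with DOX (log2 fold change 1.56 ± 0.23, adjusted p = 7.2e-07). A second one, 82.6 kb from the start, gave 0.228, 0.216 and 0.165 against 0.671, 0.516 and 0.636 (1.56 ± 0.28, adjusted p = 1.1e-05). In both, all DOX libraries lay above all vehicle libraries, and both calls held under all 15 alternatives. The first had peaks in all 3 libraries of each group. The second had a peak in 1 vehicle library and all 3 DOX libraries, so it could enter the table only with its DOX peaks. A broader region centred at -4.16 kb was higher by 0.48 ± 0.12 (adjusted p = 0.000822), but its highest bin was lower (-0.40, adjusted p = 0.0302), so the bins of the region did not move 1 way.

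The remaining 3 gains lay at HLA-E, HLA-F and TAPBP. The HLA-E region, 7.19 kb downstream of the start and past the end of the gene (chr6:30496401-30497000), gave 0.344, 0.247 and 0.328 with vehicle and 0.554, 0.716 and 0.609 with DOX (log2 fold change 1.06 ± 0.25, adjusted p = 0.000618). A region at -6.57 kb from the TAPBP start, inside DAXX, rose from 0.140, 0.265 and 0.292 to 0.443, 0.623 and 0.609 (1.25 ± 0.30, adjusted p = 0.000646), and with loess offsets it was not called (0.71, adjusted p = 0.0509). With peaks in 2 vehicle and 3 DOX libraries, it also needed a DOX peak to enter the table. The DAXX promoter itself, in the same window, was lower (-0.38 ± 0.09, adjusted p = 0.000598), a call lost with the GC trend removed (-0.04). The region near the 3′ end of HLA-F was higher by 0.60 ± 0.22 (adjusted p = 0.0203), but not with TMM factors (0.41) nor without vehicle replicate 3 (0.37, adjusted p = 0.148), without DOX replicate 2 (0.58, adjusted p = 0.0576) or without DOX replicate 3 (0.53, adjusted p = 0.0844). By the study's cutoffs of 2-fold and an adjusted p under 1e-05, 2 member regions were higher, the PATL2 region and NLRC5 at 11.1 kb, and 0 lower, where 14.1% of all regions were higher and 3.26% lower.

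The letters of the gained regions were read because the study's question concerned the AP-1 factors, whose site reads TGANTCA. In the 200 bases around the highest bin, 5 of the 8 gained regions in DU-145 held it, against 52.6% of all regions off promoters that were called higher in the line and 38.6% of all regions off promoters. The members thus stood near that background. The strongest gain, near PATL2, held none. It is shown here with the gained regions of NLRC5 and HLA-E, read on the plus strand with AP-1 letters in capitals, from chr15:44707351-44707550, chr16:57000651-57000850 and chr6:30496651-30496850 of GRCh38.
PATL2 region: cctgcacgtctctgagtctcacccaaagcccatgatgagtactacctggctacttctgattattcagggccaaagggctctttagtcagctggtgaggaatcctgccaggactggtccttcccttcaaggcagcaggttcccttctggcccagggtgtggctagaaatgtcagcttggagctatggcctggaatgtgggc
NLRC5 region: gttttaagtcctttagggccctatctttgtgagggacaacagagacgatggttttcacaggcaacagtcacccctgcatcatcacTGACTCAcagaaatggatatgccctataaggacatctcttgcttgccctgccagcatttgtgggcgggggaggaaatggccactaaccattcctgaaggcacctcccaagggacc
HLA-E region: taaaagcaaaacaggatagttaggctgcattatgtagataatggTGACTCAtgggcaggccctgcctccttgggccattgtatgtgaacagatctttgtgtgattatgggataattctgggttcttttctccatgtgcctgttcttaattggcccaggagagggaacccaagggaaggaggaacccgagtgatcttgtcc

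In BT-549 cells 2 of the 3 regions downstream of B2M lost most of their accessibility with DOX, and regions at HLA-C, HLA-E, TAP2 and the neighboring PSMB8 were lower as well. Of the 31 member regions 2 were higher and 12 lower, where 12.2% of all regions were higher and 18% lower. Among the 8 member promoters 1 was higher and 3 were lower, beside 18.2% and 6.88% of the 11838 promoter regions of the line. All 3 lower calls were lost with TMM factors, and the higher one with the GC trend removed. The median log2 fold change was -0.36 over the member regions and -0.16 over the member promoters, against -0.10 over all regions and 0.09 over all promoters. Off promoters 0 of 17 member regions were higher and 7 lower, beside 3491 and 7515 of the line's 34460. The medians there were -0.70 and -0.24. Of these 7 lower regions, all but the one near TRIM69 had peaks in every vehicle library and in no DOX library. They entered the table only through the group where they were high, so these counts of losses are no independent evidence. HLA-F had 0 bins in the BT-549 table. In the peak lists, a peak lay within 1 kb of its start in 2 of 3 vehicle libraries, at 5.55-fold and 6.28-fold enrichment over the local background, and in none of the 3 DOX libraries. In DU-145 a peak stood at the HLA-F start in all 6 libraries, at 37.6-fold to 77.7-fold.

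The region centred 8.38 kb downstream of the B2M start (chr15:44718601-44721200) overlaps the annotated end of the gene and runs into the intergenic sequence beyond. Its relative coverage was 1.91, 1.66 and 1.70 with vehicle and 0.344, 0.0848 and 0.283 with DOX. The DOX mean was 0.135 of the vehicle mean (log2 fold change -2.85 ± 0.24, adjusted p = 9.8e-10). A second region, centred 15.4 kb downstream (chr15:44726601-44727300), gave 1.44, 1.10 and 1.47 with vehicle and 0.126, 0.137 and 0.355 with DOX (-2.70 ± 0.43, adjusted p = 2.1e-05). Neither pair of groups overlapped, and both calls held under all 15 alternatives. Peaks were called there in all 3 vehicle libraries and in no DOX library. A region entered the table with peaks in at least 3 libraries, so both entered through the vehicle group alone, and the peak counts are no further evidence of the loss. The coverage behind the DOX values was small, with bin values that summed to 5.52 to 24.1 per library in the first region and 2.28 to 8.11 in the second, against 404 to 674 and 90.2 to 137 with vehicle. The B2M promoter did not share in this change. It gave 1.59, 1.34 and 1.37 with vehicle and 1.22, 1.81 and 1.62 with DOX, which overlapped (0.11 ± 0.17, adjusted p = 0.669).

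The 200 bases around the highest bin of both regions are shown because they carried the steepest losses, with AP-1 letters in capitals, from chr15:44719751-44719950 and chr15:44726751-44726950 on the plus strand. Neither highest bin overlaps a protein-coding gene. Of the 7 lost regions off promoters in BT-549, 1 held the AP-1 letters, the one 15.4 kb downstream of B2M, where 33.2% of all regions off promoters called lower in the line did.
B2M region at 8.38 kb: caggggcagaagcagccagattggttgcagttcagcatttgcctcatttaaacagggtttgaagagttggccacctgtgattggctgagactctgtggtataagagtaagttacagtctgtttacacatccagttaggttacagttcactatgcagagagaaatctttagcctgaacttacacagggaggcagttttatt
B2M region at 15.4 kb: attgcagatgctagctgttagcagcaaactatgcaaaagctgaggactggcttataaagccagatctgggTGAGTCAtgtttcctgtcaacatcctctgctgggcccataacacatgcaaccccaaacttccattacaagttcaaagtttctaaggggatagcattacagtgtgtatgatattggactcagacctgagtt

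**Figure D2:**
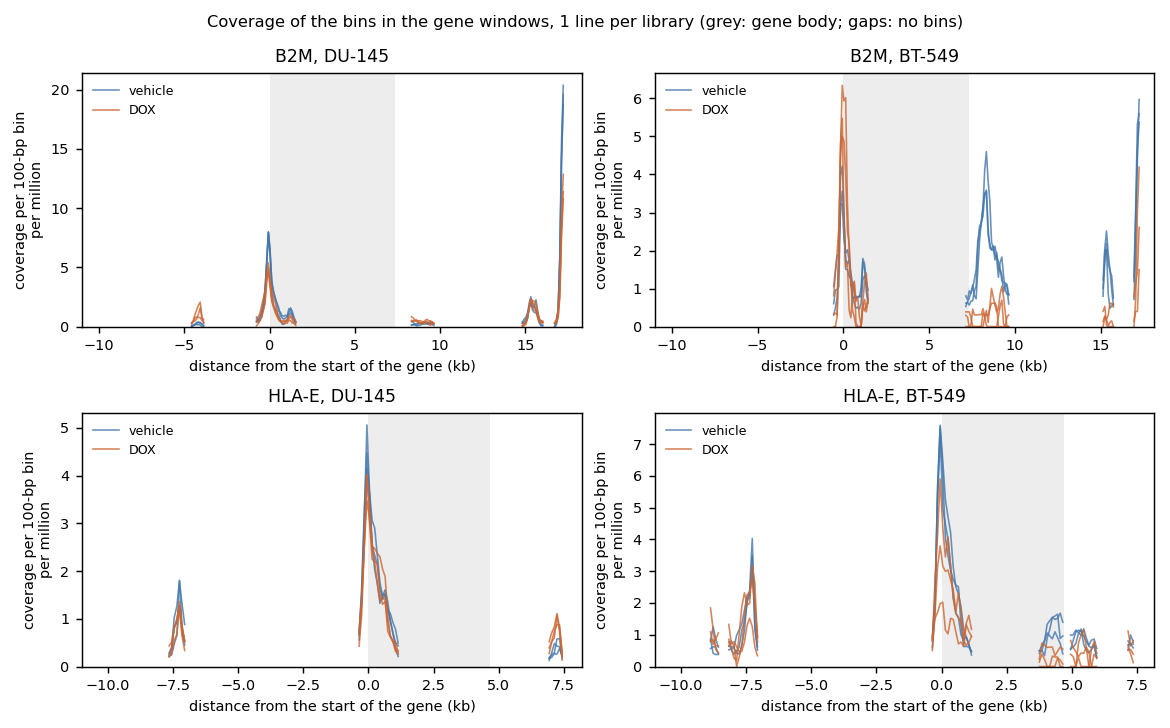
Relative coverage of each bin along the windows of B2M (top) and HLA-E (bottom) against the distance from the gene's start, 1 line per library, with DU-145 on the left, BT-549 on the right and the gene body in gray. In BT-549 the vehicle lines form a peak about 8.38 kb downstream of the B2M start that the DOX lines do not show, and in DU-145 the DOX lines stand slightly above the vehicle lines there.

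Another region in the B2M window, near TRIM69 (chr15:44728401-44729700), was lower by the test (log2 fold change -0.39 ± 0.14, adjusted p = 0.0349). That call was lost with TMM factors (-0.29, adjusted p = 0.13). It was also lost without vehicle replicate 1, 2 or 3 (adjusted p = 0.107, 0.119 and 0.0607) and without DOX replicate 2 or 3 (adjusted p = 0.0662 and 0.0907), with log2 fold changes of -0.40, -0.36, -0.42, -0.37 and -0.36.

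Of the heavy chains, HLA-C and HLA-E were lower at their promoters in BT-549. HLA-C gave 2.80, 2.96 and 2.71 with vehicle and 1.65, 1.99 and 2.29 with DOX (log2 fold change -0.50 ± 0.15, adjusted p = 0.014). HLA-E gave 2.73, 3.11 and 2.57 with vehicle and 1.24, 2.02 and 2.52 with DOX (-0.53 ± 0.18, adjusted p = 0.0271). Neither pair overlapped, but both calls were close to the limit. With TMM factors they were -0.40 (adjusted p = 0.053) and -0.42 (adjusted p = 0.0811). At the highest bin alone HLA-C was not called (-0.22, adjusted p = 0.585), while HLA-E was (-0.88, adjusted p = 0.00616). Without vehicle replicate 1 the adjusted p was 0.0544 and 0.0696, without vehicle replicate 2 it was 0.0611 and 0.133, and without DOX replicate 1 it was 0.0679 and 0.187, with the HLA-E log2 fold change then at -0.29. HLA-B gave 1.08, 1.38 and 0.939 against 1.24, 0.833 and 1.18, with full overlap (-0.07 ± 0.25, adjusted p = 0.876), and its sign turned with TMM factors (0.03).

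Outside the promoters, 2 regions of HLA-E and 1 of HLA-C were lower in BT-549. Over exon sequence near the 3′ end of HLA-E (centred 4.19 kb from the start, chr6:30493201-30494200) relative coverage was 1.0, 1.21 and 0.799 with vehicle and 0.169, 0.0559 and 0.546 with DOX (log2 fold change -1.89 ± 0.43, adjusted p = 0.00117). Just past the gene, at 5.44 kb, it was 0.928, 0.661 and 0.784 against 0.441, 0.187 and 0.374 (-1.23 ± 0.35, adjusted p = 0.00821; without vehicle replicate 1, -1.10 and 0.0653). Downstream of the HLA-C start, at 4.49 kb (chr6:31266701-31268500), it was 0.849, 1.05 and 0.571 against 0.517, 0.476 and 0.259 (-1.03 ± 0.30, adjusted p = 0.00917; without vehicle replicate 2, -0.82 and 0.0883; without DOX replicate 3, -0.75 and 0.0831). All 3 had peaks in every vehicle library and in no DOX library, the shallower group, and so they too entered the table through the vehicle group alone. At the highest bin alone, where few fragments were left, none of these 3 was called, and the HLA-C value was 0.09.

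The transporter genes TAP1 and TAP2 lie next to the immunoproteasome genes PSMB8 and PSMB9, which cut peptides for class I, and TAP1 and PSMB9 share 1 promoter region. The TAP2 promoter gave 4.83, 4.84 and 3.84 with vehicle and 3.55, 3.87 and 2.54 with DOX in BT-549 (log2 fold change -0.45 ± 0.14, adjusted p = 0.0159), with 1 DOX library above the lowest vehicle library. The PSMB8 promoter, in the windows of both TAP genes, gave 2.61, 2.38 and 2.24 against 1.72, 1.64 and 1.37 without overlap (-0.62 ± 0.13, adjusted p = 0.000818). At the highest bin alone neither promoter was called, at -0.46 (adjusted p = 0.0986) for TAP2 and -0.34 (adjusted p = 0.341) for PSMB8. TAP1 gave 3.65, 4.19 and 3.85 against 3.43, 3.80 and 3.6 (-0.11 ± 0.11, adjusted p = 0.481). The TAP2 call was lost with TMM factors (-0.35, adjusted p = 0.0724) and without vehicle replicate 1 (-0.40, adjusted p = 0.0971), vehicle replicate 2 (-0.40, adjusted p = 0.0841) or DOX replicate 3 (-0.28, adjusted p = 0.154). A small region in the TAP2 gene, 12.6 kb from the start, gave 0.792, 0.911 and 0.872 against 0.177, 0.0746 and 0.440 (-1.82 ± 0.60, adjusted p = 0.0225). It had peaks in all 3 vehicle libraries and in no DOX library, so it entered the table through the vehicle group alone. With bin values that summed to 0.56 to 4.31 in the DOX libraries it was not called by DESeq2 (-1.87, adjusted p = 0.073), nor after leaving out any 1 vehicle library (-1.88, -1.77 and -1.81, adjusted p = 0.0562, 0.0696 and 0.0578), DOX replicate 1 (-1.55, adjusted p = 0.0689) or DOX replicate 2 (-1.57, adjusted p = 0.0582).

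TAPBP was the 1 member whose promoter was higher in BT-549. It gave 1.29, 1.45 and 1.46 with vehicle and 1.62, 2.08 and 1.81 with DOX, without overlap (log2 fold change 0.39 ± 0.13, adjusted p = 0.0235). The call was lost with the GC trend removed (0.23, adjusted p = 0.204), without vehicle replicate 1 (0.34, adjusted p = 0.135) and without DOX replicate 2 (0.30, adjusted p = 0.106). In the same window the promoter of ZBTB22 was higher (0.61 ± 0.13, adjusted p = 0.000973) and that of RGL2 lower (-0.50 ± 0.11, adjusted p = 0.00126). NLRC5 gave 2.39, 2.44 and 1.66 against 1.56, 2.05 and 2.04 at its promoter (-0.21 ± 0.23, adjusted p = 0.531), and 0 of its 4 regions passed. At the study's cutoffs for BT-549, 2-fold and an adjusted p under 0.01, 5 member regions were lower, at B2M, HLA-E and HLA-C, and 0 higher, where 8.62% of all regions were lower and 3.75% higher. All 5 entered the table through the vehicle group alone, so this count is no independent evidence of loss.

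**Figure D3:**
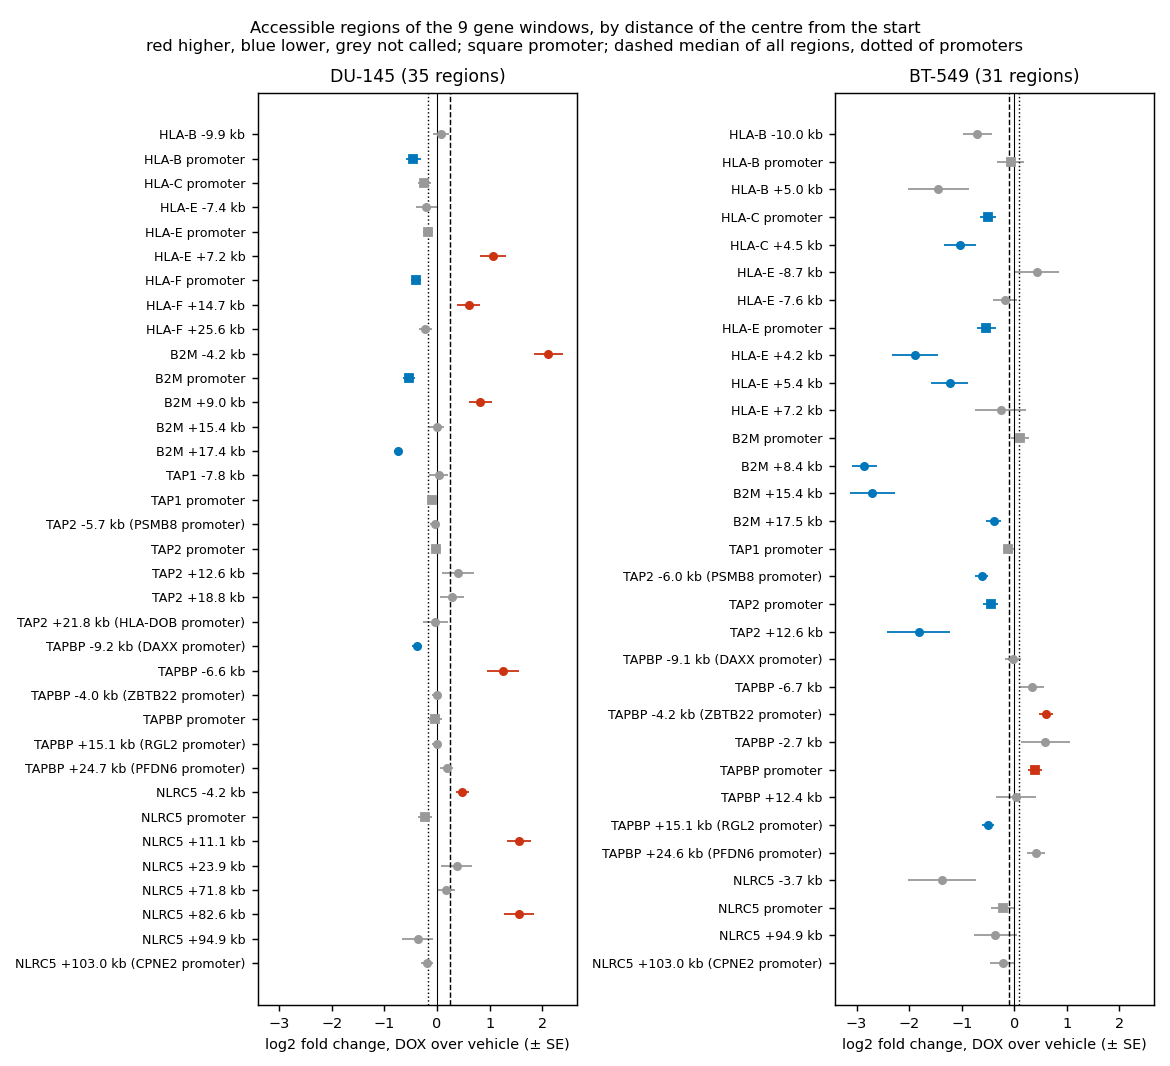
Log2 fold change (DOX over vehicle, ± SE) of all 35 member regions in DU-145 and 31 in BT-549, each named by its gene and the distance of its centre from the start, with the median of all regions dashed and that of promoters dotted. In BT-549 the B2M regions at 8.4 and 15.4 kb lie furthest to the left, and in DU-145 the called gains are all at regions off promoters. Of the 29363 gains over all regions of DU-145, 28351 were off promoters too.

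Summed over whole gene windows, 5 of the 8 members with bins were lower in BT-549 and 2 of 9 in DU-145. B2M was lower in both, by -1.12 ± 0.12 on the log2 scale in BT-549 (adjusted p = 1.2e-08) and -0.37 ± 0.07 in DU-145 (adjusted p = 6.1e-05). In BT-549 its window summed to 99.2 ± 6.57 of relative coverage with vehicle and 45.7 ± 3.66 with DOX (SD, n = 3), and in DU-145 to 106 ± 5.37 and 81.7 ± 5.0. The regions behind these falls differed. In DU-145 the promoter (-0.53) and the region near TRIM69 (-0.74) were lower. There the region at 8.98 kb was higher (0.82) and that at 15.4 kb did not pass (-0.01). In BT-549 the regions at 8.38 kb (-2.85), 15.4 kb (-2.70) and near TRIM69 (-0.39) were lower. A window also takes in regions of neighboring genes. HLA-C (-0.62), HLA-E (-0.56), TAP2 (-0.54) and TAP1 (-0.35) were the other losses in BT-549, and HLA-F (-0.24, adjusted p = 0.0371) was the other in DU-145. The windows of TAP1 and TAP2 overlap and share regions. No member window was higher in either line. Over all protein-coding windows 20% were higher and 31% lower in DU-145, and 18.1% and 13% in BT-549. Without vehicle replicate 1, vehicle replicate 2, DOX replicate 1 or DOX replicate 3, 1 member window was lower in DU-145, and without DOX replicate 2 there were 4.

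The vehicle libraries of both lines were then compared at the 24 member regions that both tables held, on relative coverage scaled to the sum of the shared bins. The promoter of B2M was more accessible in DU-145 and that of HLA-C in BT-549. Those of HLA-E, TAP1 and TAP2 were also called higher in BT-549, but not with TMM factors. In all, 6 member regions were higher in DU-145 and 11 in BT-549, beside 27% and 48.1% of the 32671 shared regions, whose median log2 difference (DU-145 over BT-549) was -0.33. Over shared promoter regions of protein-coding genes the median was 0.05, and over the 8 shared member promoters -0.26. At B2M the vehicle values were 2.48, 3.12 and 3.03 in DU-145 and 1.94, 1.63 and 1.68 in BT-549 (log2 difference 0.72 ± 0.11, adjusted p = 8.9e-07). At HLA-C they were 2.61, 2.43 and 2.81 against 3.83, 3.99 and 3.70 (-0.56 ± 0.11, adjusted p = 2.5e-05). Neither pair overlapped, and both differences were called under all 13 alternatives.

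HLA-E (-0.49), TAP2 (-0.40) and TAP1 (-0.26) also stood higher in BT-549, without overlap, but these were not called with TMM factors, with which the median of all shared regions was -0.06 and the TAP1 difference 0.01. HLA-B was higher in DU-145 by 0.43 ± 0.17 (adjusted p = 0.0237) with overlapping libraries, a call lost without DU-145 vehicle replicate 3 (0.24, adjusted p = 0.228), BT-549 vehicle replicate 1 (0.39, adjusted p = 0.0813) or BT-549 vehicle replicate 3 (0.32, adjusted p = 0.111). TAPBP (-0.23) and NLRC5 (-0.25) did not pass. The largest differences lay off promoters. The B2M region 8.98 kb downstream gave 0.219, 0.349 and 0.383 in DU-145 and 2.42, 2.16 and 2.18 in BT-549 (-2.82 ± 0.18, adjusted p = 8.2e-16). The region at -6.57 kb from the TAPBP start was also higher in BT-549 (-2.33 ± 0.26, adjusted p = 1.2e-09), while the region at -3.71 kb from the NLRC5 start was higher in DU-145 (1.95, adjusted p = 1.9e-09). The B2M region entered the BT-549 table through its vehicle libraries alone and needed its DOX peaks to enter the DU-145 table. Presence in both tables therefore already leaned toward this B2M difference, and its test is no independent support. The TAPBP region also needed a DOX peak in DU-145.

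**Figure D4:**
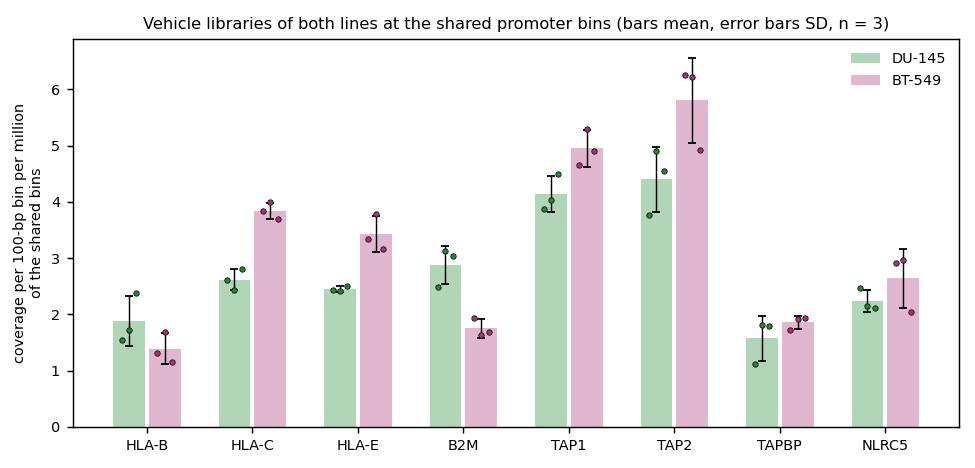
Relative coverage of the vehicle libraries at the 8 shared member promoters in DU-145 and BT-549, scaled to the sum of the shared bins, with points for libraries, bars for means and error bars for the SD (n = 3). B2M lies higher in DU-145 (2.48 to 3.12 against 1.63 to 1.94), and HLA-C (3.84 against 2.61) and HLA-E (3.43 against 2.45) lie higher in BT-549.

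Ordered by vehicle level within a line, TAP2 and TAP1 led in both lines. In DU-145 the means were 2.92 ± 0.357 for TAP2, 2.84 ± 0.207 for TAP1, 2.47 ± 0.0808 for HLA-F, 1.93 ± 0.22 for B2M, 1.85 ± 0.125 for HLA-C, 1.82 ± 0.0344 for HLA-E, 1.17 ± 0.292 for TAPBP, 1.13 ± 0.248 for HLA-B and 1.10 ± 0.0752 for NLRC5 (SD, n = 3). TAP2 overlapped in its libraries with TAP1 and with HLA-F, and so did B2M, HLA-C and HLA-E with each other, and TAPBP, HLA-B and NLRC5 with each other. In BT-549 the order was TAP2 (4.50 ± 0.574), TAP1 (3.90 ± 0.272), HLA-C (2.82 ± 0.123), HLA-E (2.81 ± 0.277), NLRC5 (2.16 ± 0.437), B2M (1.43 ± 0.136), TAPBP (1.40 ± 0.0932) and HLA-B (1.13 ± 0.228). The libraries of TAP2 and TAP1 overlapped, as did those of HLA-C and HLA-E, and those of B2M, TAPBP and HLA-B with each other. These are means per bin over regions of 8 to 34 bins, and a wider region takes in more of its flanks.

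The effect of DOX differed between the lines at 11 of the 24 shared member regions by the interaction test. At 10 it was higher in DU-145 and at 1 lower, beside 27.3% and 11.3% of all shared regions, whose median interaction was 0.24. Over shared promoter regions of protein-coding genes the median was -0.13, and over the 8 shared member promoters 0.18. The B2M region 8.98 kb downstream had the largest value of the 11. On the scale of the shared bins it went from 0.317 ± 0.0867 with vehicle to 0.609 ± 0.0491 with DOX in DU-145 and from 2.26 ± 0.147 to 0.363 ± 0.242 in BT-549 (SD, n = 3), an interaction of 3.57 ± 0.37 on the log2 scale (adjusted p = 2.8e-10). The region 15.4 kb downstream gave 2.05 ± 0.194 and 2.27 ± 0.213 in DU-145 against 1.64 ± 0.256 and 0.243 ± 0.153 in BT-549 (2.90 ± 0.43, adjusted p = 5.8e-07). Both were called under all 19 alternatives. In BT-549 both regions had peaks in all 3 vehicle libraries and in no DOX library. In DU-145 the first had a peak in 1 vehicle library and all 3 DOX libraries, so it needed its DOX peaks to enter the table. Presence in both tables therefore already leaned toward this direction, and the interaction is no independent support for it. The B2M promoter had an interaction of -0.48 ± 0.20 that did not pass (adjusted p = 0.0575). With TMM factors the median interaction of all shared regions was 0.03, and 6 member regions were higher in DU-145 and 3 lower.

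**Figure D5:**
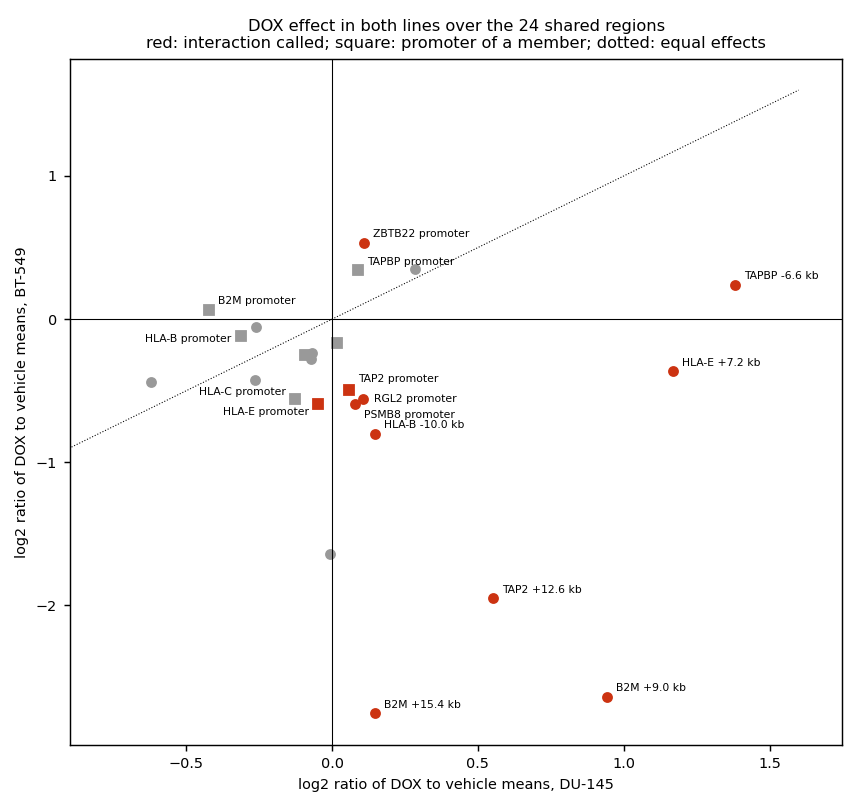
Log2 ratio of the DOX to the vehicle mean in DU-145 (x axis) and BT-549 (y axis) at the 24 shared member regions, on relative coverage scaled to the sum of the shared bins, with red points where the interaction was called and a dotted line of equal effects. The B2M regions at 9.0 and 15.4 kb and the TAP2 region at 12.6 kb lie lowest on the y axis and right of 0 on the x axis.

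The other genes of the pathway, a list of 19, were read at their promoter regions. In DU-145 12 were lower, 1 was higher and 6 did not pass, with a median log2 fold change of -0.31 against -0.18 for all promoter regions, of which 39.8% were lower. The regions of PSMB8 and PSMB9 are among the member regions above. Of the 8 factors that act on class I promoters 6 were lower in DU-145. CREB1, which binds CRE sites, fell from 3.6 ± 0.271 to 1.65 ± 0.0307 (log2 fold change -1.13, adjusted p = 5.7e-14). IRF1, an interferon-induced activator, fell from 4.43 ± 0.307 to 3.21 ± 0.0576 (-0.46, adjusted p = 3.4e-06). RFX5, the X-box binding subunit, fell from 5.89 ± 0.419 to 4.32 ± 0.443 (-0.45, adjusted p = 3e-05), and NFYA, a CCAAT-binding subunit, from 8.85 ± 0.117 to 7.13 ± 0.225 (-0.31, adjusted p = 3.9e-05). The immunoproteasome subunit PSMB10 fell from 2.57 ± 0.217 to 1.82 ± 0.18 (-0.49, adjusted p = 3.2e-05). The 1 gain, named after its value was seen, was ERAP2, a peptide-trimming aminopeptidase, at 0.459 ± 0.0676 and 0.633 ± 0.126 (0.47, adjusted p = 0.0166).

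In BT-549 the same list gave 1 higher, 2 lower and 16 that did not pass, with a median of -0.03, beside 18.2% higher, 6.88% lower and a median of 0.09 over all promoter regions of the line. None of the 8 promoter factors passed. The promoter of CALR, the chaperone calreticulin of the loading complex, rose from 2.29 ± 0.188 to 3.95 ± 0.266 (log2 fold change 0.79, adjusted p = 6.8e-05). PSMB8 and TAPBPL, a tapasin-related editor of peptides, were the 2 that fell, TAPBPL from 1.66 ± 0.197 to 1.07 ± 0.141 (-0.62, adjusted p = 0.02). RFX5 gave 4.32 ± 0.216 and 3.4 ± 0.681 at its promoter (-0.35, adjusted p = 0.0547). The sum over the RFX5 window fell from 76.6 ± 4.66 to 55.1 ± 9.1 of relative coverage (-0.48, adjusted p = 0.00404). IRF1 gave 3.63 ± 0.249 and 4.27 ± 0.324 at its promoter (0.23, adjusted p = 0.0825), while the sum over its window, of 294 bins, fell from 1065 ± 8.02 to 525 ± 24.5 of relative coverage (-1.02, adjusted p = 1.7e-14). Such windows can also hold regions of neighboring genes.

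Among the 8 shared member promoters, that of HLA-C had the widest range of the 4 group means, 0.52 on the scale of log2(relative coverage + 1). Over the 12 libraries, the promoters most like it among 11191 others were those of the gene listed as ENSG00000257767 (Pearson r = 0.942), ANKFY1 (r = 0.938) and FTSJ1 (r = 0.931). The points share libraries, depth and line, so these values only describe the likeness of the patterns.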

How the data were processed

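ATAC-seq was analysed in 12 libraries, 3 per group. The authors aligned reads to GRCh38 with BWA, removed duplicates with Picard and called peaks in each replicate with MACS2 (2.2.7.1 in the submitters' processing notes, which also name MACS3). Peaks found in at least 3 replicates were merged and cut into 100-bp bins. The deposited bin values are estimated counts, the mean fragment coverage of each bin, not whole numbers. The peak files hold, as deposited, the fold enrichment of each peak and its −log10 p- and q-values, per replicate and not pooled.

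Bins were summed per region, rounded and tested with edgeR 4.0.16 (quasi-likelihood, robust, R 4.3.3), scaled by the library sum, for regions with a total of at least 10, and adjusted by the Benjamini-Hochberg method over all regions. A promoter region lies within 1 kb of the canonical start. The lines and the interaction of line and DOX were tested on bins of both tables. The standard error is the log2 fold change divided by the square root of its F statistic. Labels give biologically independent replicates. Alternatives were TMM and RLE factors, loess offsets, removal of each library's trend with GC content (20 strata), DESeq2 1.42.0, other filters, a replicate block, the highest bin, 2 kb flanks, the study's cutoffs and leaving out each library. Scripts were tested on simulated data.

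Named were each member's promoter region and, per line, its called region off that promoter with the smallest adjusted p. Other regions were named after their values were seen. Members and lists were chosen with earlier results of these data known. Bin values carry counting error that replicates alone measure here, and the summed coverage sets their precision.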

Additional observations from a re-analysis of the deposited data

Results flagged for a closer look

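At 11 of the 24 member regions held by both tables the effect of DOX differed between DU-145 and BT-549 by the interaction test (edgeR's quasi-likelihood test, Benjamini-Hochberg adjusted). The values are differences of the log2 fold changes, DU-145 minus BT-549, beside a median of 0.24 over all shared regions and -0.13 over shared promoter regions. The 2 largest were both downstream of B2M, 3.57 at 8.98 kb and 2.90 at 15.4 kb. The region inside TAP2 at 12.6 kb gave 2.37, with bin values that summed to 0.56 to 4.31 in the BT-549 DOX libraries. These 3 and the promoter of RGL2 in the TAPBP window (0.66) were called under all 19 alternatives. The 3 regions off promoters entered the BT-549 table through its vehicle libraries alone, as no DOX library had a peak there. Their presence in both tables already leaned toward a positive difference.

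The other differences were smaller or less stable. The HLA-E region 7.24 kb downstream gave 1.55 and was not called with RLE factors (1.27, adjusted p = 0.0537), without DU-145 vehicle replicate 2 (1.34, adjusted p = 0.0596) or BT-549 DOX replicate 2 (1.36, adjusted p = 0.0505). This HLA-E region too entered the BT-549 table through its vehicle libraries alone, which leaned toward a positive difference. The region at -6.57 kb from the TAPBP start gave 1.13 and was lost under 8 of the alternatives, with values from 0.84 to 1.27. In DU-145 that TAPBP region had peaks in 2 vehicle and 3 DOX libraries, so it needed a DOX peak to enter the table. The region at -9.97 kb from the HLA-B start gave 0.91 and was lost with TMM factors (0.70), RLE factors (0.62) and each table's own library size (0.73), and without DU-145 vehicle replicate 2 (0.81) or BT-549 DOX replicate 1 (0.67). The promoter of PSMB8, in the windows of TAP1 and TAP2, gave 0.68 and was lost with RLE factors alone (0.39, adjusted p = 0.0798). The TAP2 promoter gave 0.56 and was lost with TMM factors (0.35, adjusted p = 0.12), RLE factors (0.27, adjusted p = 0.23) and each table's own library size (0.39, adjusted p = 0.0834), and without BT-549 DOX replicate 3 (0.39, adjusted p = 0.0844). The HLA-E promoter gave 0.53 and was lost under 11 of the alternatives, with 0.30 (adjusted p = 0.216) without BT-549 DOX replicate 1. The promoter of ZBTB22 in the TAPBP window was the 1 region with a lower effect in DU-145, at -0.42, and it was lost without BT-549 DOX replicate 2 (-0.25, adjusted p = 0.234) and 6 other libraries in turn. The BT-549 DOX libraries were the shallowest of the 4 groups, and depth and treatment cannot be told apart there.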

How the results depend on the processing

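Over 67 named values and 1011 alternative values, 832 kept their direction and their side of the threshold, 130 lost the call, 20 gained one and 29 turned sign. The filter removed no region, with 79177, 46298 and 32671 regions tested with it and without it. Dropping it therefore repeated the main fit, and its 67 unchanged values are no check, here or among the alternatives counted above. In DU-145 the filter of edgeR (filterByExpr) also kept all 79177 regions. The causes were not tested. In DU-145 the 8 higher and 5 lower member regions became 16 and 2 with the GC trend removed, 4 and 3 with 2 kb flanks and 2 and 0 at the study's cutoffs. The lower count was 12 with TMM factors, 15 with RLE factors, 8 with loess offsets and 8 at the highest bin. Leaving out 1 library gave 7 to 9 higher and 4 to 6 lower. Of the DU-145 windows, 1 was higher and 1 lower with TMM or RLE factors, and leaving out 1 library gave 0 to 1 higher and 1 to 4 lower. In BT-549 the 2 higher regions became 1 with the GC trend removed or 2 kb flanks and 0 at the study's cutoffs, the 12 lower became 5 at those cutoffs and 4 at the highest bin, and leaving out 1 library gave 1 to 2 and 6 to 12, the 6 without vehicle replicate 1 or vehicle replicate 2. Between the lines the 6 higher in DU-145 became 3 with each table's own library size and 3 to 6 without 1 library (3 without BT-549 vehicle replicate 1), and the 11 higher in BT-549 became 5 with TMM or RLE factors. TMM factors moved the calls over all shared regions from 8817 and 15715 to 11645 and 12131. The interaction's 10 higher and 1 lower became 6 and 3 with TMM factors, 4 and 5 with RLE factors and 6 and 3 with own library sizes, and the lower count ran from 0 to 3 without 1 library. Over all shared regions TMM factors moved it from 8915 and 3696 to 6899 and 6283.

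In DU-145 these promoters turned sign: with the GC trend removed NLRC5 (0.12), HLA-E (0.18), HLA-C (0.10), TAP2 (0.31), TAP1 (0.25) and TAPBP (0.29), and with loess offsets TAP2 (0.12), TAP1 (0.10) and TAPBP (0.03). Leaving out 1 library gave TAP2 -0.13 to 0.07 and TAPBP -0.22 to 0.09, each above 0 when any 1 of 3 libraries was left out. At the highest bin NLRC5 at -4.16 kb gave -0.40 and, in BT-549, HLA-C at 4.49 kb gave 0.09. In BT-549 the HLA-B promoter gave 0.03, 0.04 and 0.08 with TMM, RLE and loess and -0.18 to 0.10 without 1 library, and B2M gave -0.01 to 0.25 without 1 library. Between the lines TMM and RLE gave 0.02 and 0.05 at NLRC5, 0.01 and 0.03 at TAP1 and 0.04 and 0.07 at TAPBP.

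Replicate numbers are shared by the groups, but same-numbered libraries did not deviate together (r = 0.0212, 0.02 and -0.0194 in DU-145 and 0.00302, 0.0595 and 0.0369 in BT-549). With the number as a replicate block there were 8 higher and 5 lower regions in DU-145 and 2 and 12 in BT-549, 0 and 3 windows in DU-145 and 0 and 5 in BT-549, 6 and 11 between the lines and 10 and 1 in the interaction. Of the 67 values 2 changed their call under the block. The shallow BT-549 DOX libraries limit what can be said of regions with few fragments there.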
